A study of Mus musculus with 4 samples.

Results

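The oxidative phosphorylation genes were the 98 of 24421 listed gene symbols that begin with Nduf, Uqcr, Atp5, Sdha, Sdhb, Sdhc or Sdhd, or with Cox4, Cox5, Cox6, Cox7 or Cox8, together with Cyc1 and Cycs. They hold 36 nuclear genes of complex I (7 of its catalytic core and 29 accessory subunits), the 4 of complex II, 10 of complex III with cytochrome c, 20 of complex IV and 16 of complex V. The other 12 are assembly factors that the same prefixes catch. The libraries were made from DPPIV- and DPPIV+ FAPs (fibro-adipogenic progenitors, the stromal cells of skeletal muscle) of the same 2 wild-type mice, 1 library of each cell type a mouse, and the mice are numbered 1 and 2 as their animal numbers rise in the labels. Both cell types were sorted as live CD31- CD45- Sca1+ cells and parted by the surface peptidase DPPIV, the product of Dpp4. Every mouse had received a CSF1R inhibitor (PLX73086 in the chow, by the study's methods) for 3 weeks, which removes muscle macrophages, and then regular diet for 3 days, so all libraries share this treatment and no library came from an untreated mouse. The study used adult mice of both sexes. The labels name the Tibialis Anterior as the source, whereas the protocol beside them describes the muscle of both hindlimbs, and they name another stranded mRNA kit than the study's methods.

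Oxidative phosphorylation takes place in the inner mitochondrial membrane. Complexes I and II take electrons from NADH and succinate, complex III hands them to cytochrome c, complex IV passes them to oxygen, and complex V, the ATP synthase, uses the proton gradient that complexes I, III and IV build. Most subunits are made from nuclear genes in all cells that respire, and several complex IV subunits exist as a widespread form and a form restricted to heart and skeletal muscle, testis, or cells such as lung and pericytes. The subunits encoded in mitochondrial DNA, of which 13 were looked for, are not analysed here.

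DPPIV- and DPPIV+ FAPs differed little in nearly all of these genes, with the exception of Ndufa4l2. It was lower in the DPPIV+ FAPs of both mice, at 6.55 and 11.2 against 28.6 and 34.5 CPM (reads scaled to a common library size), while its paralog Ndufa4 had 43.8 and 50.7 against 46.5 and 49.1 CPM. Ndufa4 encodes a small subunit found with complex IV, and Ndufa4l2 a relative known to be induced at low oxygen. Ndufa4 lies on chromosome 6 from 11900292 to 11907497 on the minus strand and Ndufa4l2 on chromosome 10 from 127514967 to 127517154 on the plus strand (GENCODE release M21 on GRCm38). Their coding sequences are shown because the finding parts 2 genes that are alike: 174 of 242 aligned bases were identical (71.9%), and these are in capitals.
Ndufa4: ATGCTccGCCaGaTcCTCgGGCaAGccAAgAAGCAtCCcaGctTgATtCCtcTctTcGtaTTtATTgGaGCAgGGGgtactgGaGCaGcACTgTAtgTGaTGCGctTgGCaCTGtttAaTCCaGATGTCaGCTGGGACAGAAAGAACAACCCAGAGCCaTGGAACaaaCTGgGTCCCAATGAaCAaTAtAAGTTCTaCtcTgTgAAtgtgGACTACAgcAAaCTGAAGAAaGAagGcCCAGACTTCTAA
Ndufa4l2: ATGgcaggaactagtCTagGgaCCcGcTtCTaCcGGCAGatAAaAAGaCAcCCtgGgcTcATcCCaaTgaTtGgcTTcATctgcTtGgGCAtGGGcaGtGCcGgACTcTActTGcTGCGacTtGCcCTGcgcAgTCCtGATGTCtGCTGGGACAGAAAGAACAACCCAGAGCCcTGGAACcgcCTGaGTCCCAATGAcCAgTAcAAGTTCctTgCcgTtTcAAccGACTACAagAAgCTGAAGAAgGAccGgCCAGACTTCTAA
No stretch of either transcript met the limit for a near copy (97% identity over 50% of the transcript), so neither counts as a near copy of the other. Of the exon bases of Ndufa4l2, 32 are shared with Shmt2 on the opposite strand.

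Promoters were read from a table of RefSeq windows (GRCm38.p6), in which 81 of the 98 genes were matched. Those shown are the 250 bases before the start of a member with 3 matches to the NRF1 motif, Cox6a1 (chr5:115348959-115349208, minus strand), and of the members past the threshold in the comparison below, Sdhd (chr9:50603850-50604099, minus strand), Ndufs8 (chr19:3912775-3913024, minus strand) and Cox7a2l (chr17:83514334-83514583, minus strand). The window of Ndufa4l2 was not analysed here. NRF1 is a transcription factor known for binding promoters of respiratory chain genes, and capitals mark letters that match its motif.
Cox6a1: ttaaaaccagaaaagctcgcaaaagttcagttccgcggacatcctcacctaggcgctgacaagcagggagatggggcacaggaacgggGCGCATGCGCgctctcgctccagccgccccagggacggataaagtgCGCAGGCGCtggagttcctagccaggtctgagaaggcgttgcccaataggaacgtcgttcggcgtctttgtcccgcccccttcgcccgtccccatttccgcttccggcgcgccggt
Sdhd: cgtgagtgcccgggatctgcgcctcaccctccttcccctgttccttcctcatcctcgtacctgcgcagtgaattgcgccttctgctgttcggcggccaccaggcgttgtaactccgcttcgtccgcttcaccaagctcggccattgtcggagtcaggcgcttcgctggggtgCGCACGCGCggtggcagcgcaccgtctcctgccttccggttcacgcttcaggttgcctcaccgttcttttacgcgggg
Ndufs8: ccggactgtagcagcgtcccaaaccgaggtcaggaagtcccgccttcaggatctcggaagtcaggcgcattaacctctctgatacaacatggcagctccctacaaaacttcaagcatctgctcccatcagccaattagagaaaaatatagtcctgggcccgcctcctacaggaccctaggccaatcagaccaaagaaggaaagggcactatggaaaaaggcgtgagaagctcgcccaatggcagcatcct
Cox7a2l: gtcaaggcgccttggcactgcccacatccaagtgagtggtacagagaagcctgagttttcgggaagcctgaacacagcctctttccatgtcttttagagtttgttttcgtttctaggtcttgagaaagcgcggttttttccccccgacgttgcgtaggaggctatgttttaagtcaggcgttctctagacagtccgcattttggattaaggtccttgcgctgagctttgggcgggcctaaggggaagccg
Counted on both strands, Cox6a1 held 3 matches of the NRF1 letters and Sdhd 1. The first marked stretch of Cox6a1 reads the same on either strand and holds overlapping matches, so its matches are not all separate sites. The Ndufs8 and Cox7a2l windows held none of the motifs searched.

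Between 18240110 and 20879405 reads were counted on genes in each library, and 3 reads corresponded to 0.144 to 0.164 CPM. Levels are given below as CPM on library sizes scaled by edgeR's TMM method, and levels of different genes are compared only per kilobase of transcript. Dpp4 had 89.8 and 39.7 CPM in the DPPIV- libraries and 728 and 575 CPM in the DPPIV+ libraries, mouse 1 first in each pair here and below. The FAP marker Pdgfra had 1657 and 1476 CPM in DPPIV- and 1241 and 1159 CPM in DPPIV+ FAPs. It is 1 of 8 FAP markers listed, of which 5 were lower and 2 higher in DPPIV+ FAPs in the comparison below. Their log2 fold changes ran from -0.85 to 2.66. Markers of cells outside the gate were not at 0. Summed endothelial markers reached 86.4 CPM in the DPPIV- library of mouse 1 and 44.3 to 50.04 CPM in the other libraries, and summed macrophage and blood markers 356 CPM there and 197 to 225 CPM elsewhere. In the comparison below, 4 of 6 endothelial and 5 of 8 macrophage and blood markers tested were lower in DPPIV+ FAPs. DESeq2 called 0 of them. Their median log2 ratios were -0.79 and -0.59 in mouse 1, and 0.02 and -0.10 in mouse 2. Because the cells were measured in bulk, fewer cells of a type and less RNA per cell cannot be told apart.

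Of the 98 genes, 90 reached 2 CPM in at least 2 libraries and were tested, 5 had reads but stayed under this filter, and Ndufs5, Cox7b2 and Cox8c had 0 reads in all libraries, under the 3 reads that a count of 0 allows. Ndufs5, an accessory subunit of complex I, has a near copy, BC002163, that the table lists with at most 0.384 CPM, so its level is uncertain. In all, 10 members have near copies, among them Cox7c, Atp5g2, Atp5l and Uqcrb, whose levels are uncertain for the same reason, and 32 share exon bases with a gene on the opposite strand. The members lie on 19 chromosomes, with at most 11 on any of them.

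The members made up 0.402% to 0.420% of the counts of each library. Their summed level was 4185 and 4076 CPM in DPPIV- FAPs and 4067 and 4222 CPM in DPPIV+ FAPs. The ranges of the 2 cell types overlap, with the DPPIV+ library lower in mouse 1 (log2 ratio -0.04) and higher in mouse 2 (0.05). Per kilobase, the median of the tested members was 40.8 CPM against 8.79 CPM for all genes tested, with a range from 0.495 CPM for the complex II assembly factor Sdhaf3 to 231 CPM for Atp5b, the catalytic beta subunit of the ATP synthase.

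**Figure D1:**
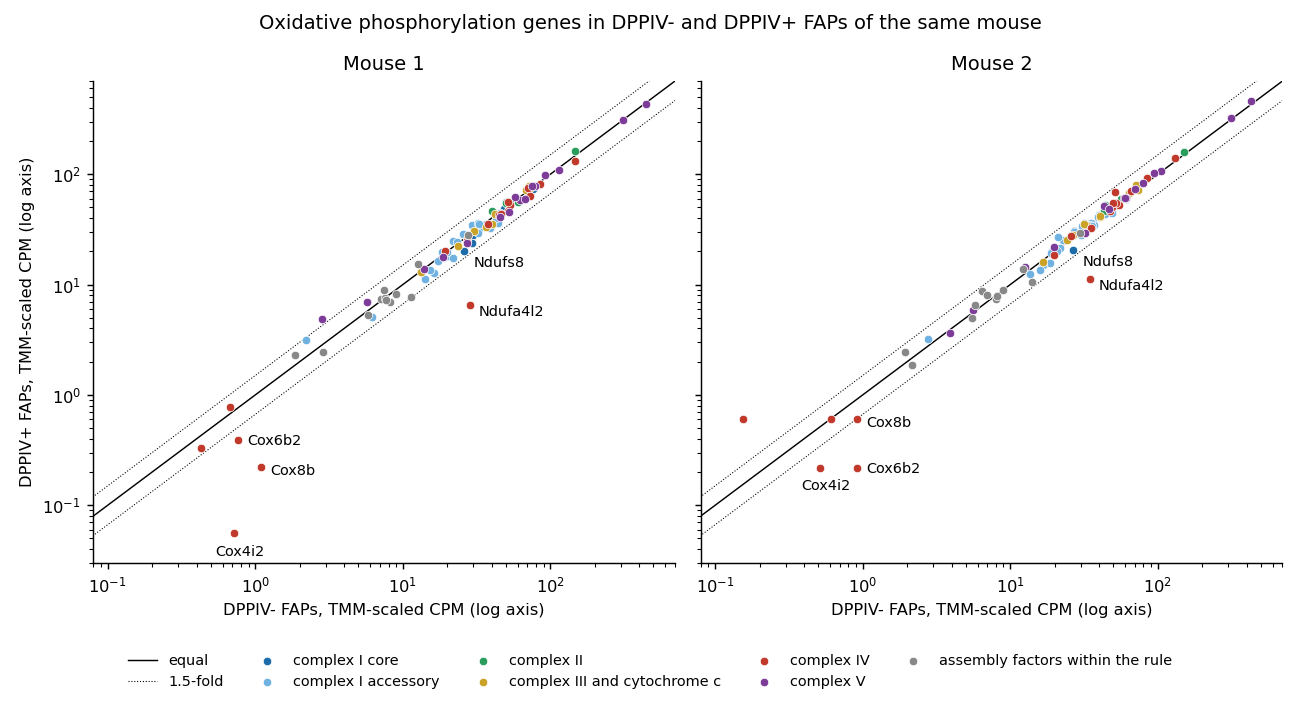
Level of each member with reads in DPPIV- (horizontal) and DPPIV+ FAPs (vertical) of mouse 1 and of mouse 2, in TMM-scaled CPM on log axes, with 1 point a gene coloured by complex. The solid line marks equal levels and the dotted lines a 1.5-fold difference, and among members above 2 CPM only Ndufa4l2 lies far below the lines in both mice.

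The cell types were compared over 11588 genes with edgeR's quasi-likelihood test, with mouse as a block and Benjamini-Hochberg adjustment over all genes, at a threshold of 0.05. Among the 90 members tested, 2 rose and 2 fell in DPPIV+ FAPs. That is 4.44% of the members, beside 33.0% of all genes tested (15.9% higher and 17.2% lower). At an unadjusted p under 0.05 there were 8 members, beside 39.6% of all genes tested. Against a 1.5-fold change, Ndufa4l2 alone was called, beside 9.42% of all genes. DESeq2 also called Ndufa4l2 alone, beside 16.6% of all genes, and edgeR without the mouse block called Ndufa4l2 and Ndufs8, beside 18.3%.

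The members' fold changes lay close together. The median log2 fold change was -0.002, and it was -0.002 over all genes tested, with 43 members above 0 and 47 below. The quartiles of the members were -0.07 and 0.07, against -0.18 and 0.14 for all genes, and their SD was 0.236 (0.134 without Ndufa4l2) against 0.605. A missed threshold does not show equal levels, so the intervals were counted: the 95% interval of the fold change stayed inside 1.5-fold either way for 84 of the 90 members (93.3%), beside 71.0% of all genes tested. The median standard error was 0.08 for the members and 0.10 for all genes. These intervals use the spread pooled over genes of like abundance and do not measure a gene's own spread between animals. Apart from Ndufa4l2, the 5 members whose interval reached past 1.5-fold, Atp5s, Ndufb4, Ndufaf6, Sdhaf3 and Atp5sl, had at most 8.77 CPM on average.

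**Figure D2:**
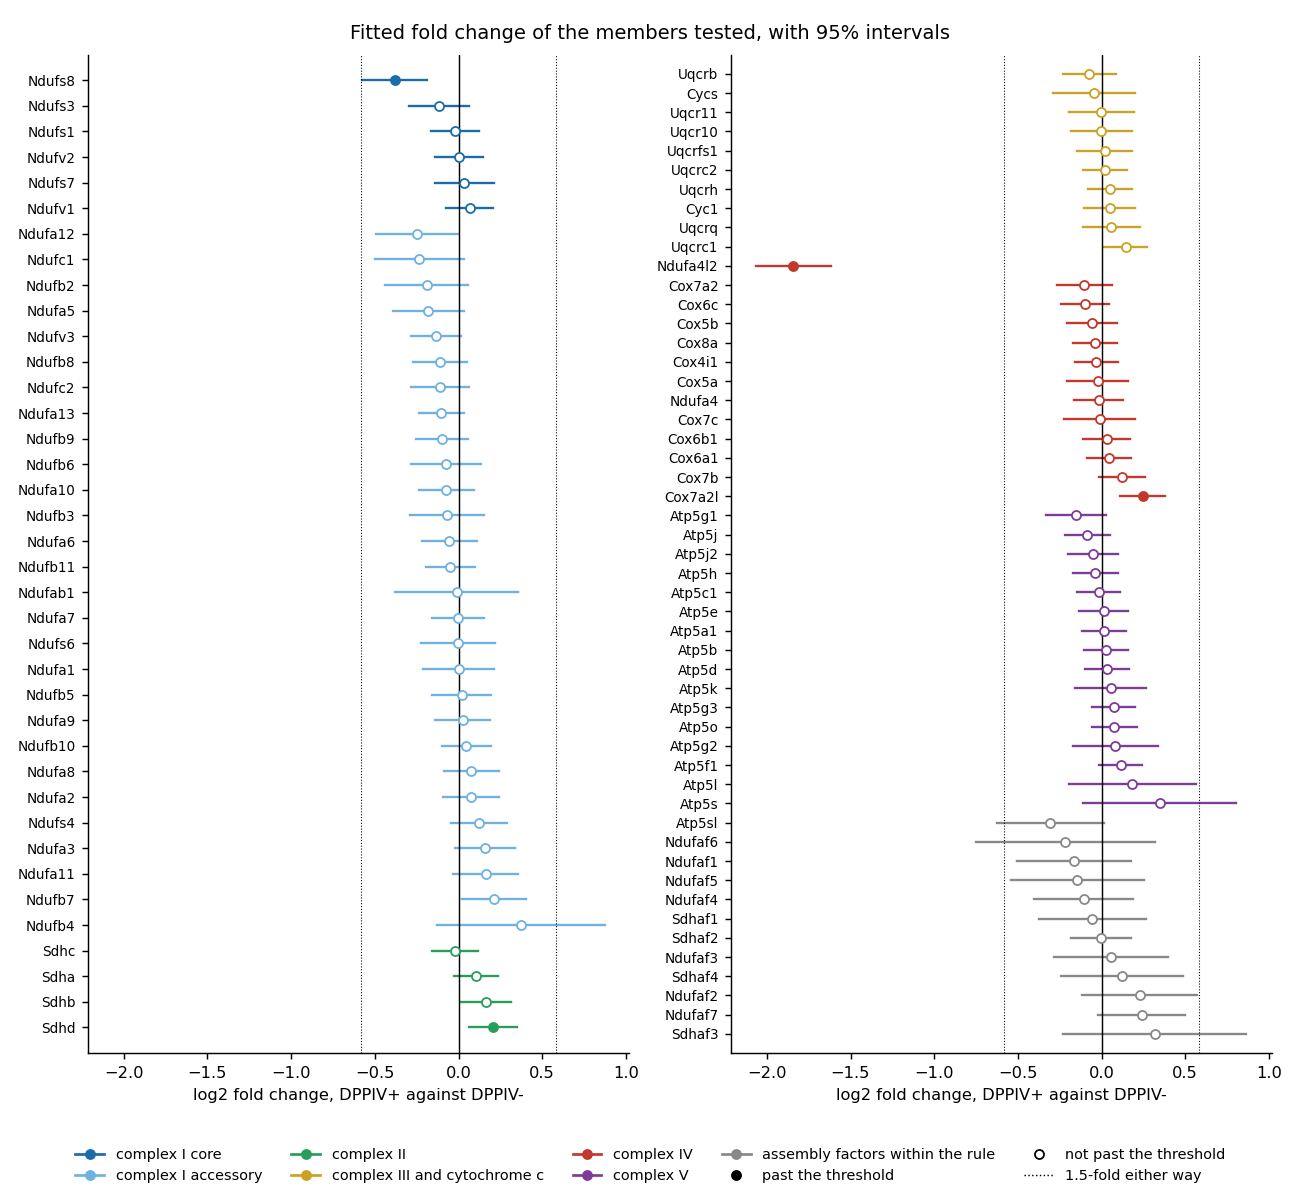
Log2 fold change of DPPIV+ against DPPIV- FAPs for 89 of the 90 members tested, with points for the fitted value, bars for the 95% interval and colours for the complex. Filled points are the 4 members past the threshold, dotted lines mark 1.5-fold either way, and the interval of Ndufa4l2, -2.07 to -1.62, lies apart from all others.

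In complex IV, which ends the chain at oxygen, 13 of the 20 genes were tested, 1 rose and 1 fell, and their median log2 fold change was -0.02. Reads of Ndufa4l2 numbered 598 and 675 in DPPIV- FAPs against 118 and 205 in DPPIV+ FAPs, or 28.6 and 34.5 CPM against 6.55 and 11.2 CPM. Both DPPIV+ libraries lay below both DPPIV- libraries, and mouse 2 was above mouse 1 in each cell type. The log2 fold change was -1.84 (standard error 0.11, adjusted p = 1.69e-55 with edgeR), -2.12 in mouse 1 and -1.62 in mouse 2. Its value ran from -2.26 to -1.49 over 15 alternative settings, and the largest adjusted p among those with a test was 0.00154. Ndufa4 had 46.5 and 49.1 CPM in DPPIV- and 43.8 and 50.7 CPM in DPPIV+ FAPs, with overlapping groups and a log2 fold change of -0.02 (95% interval -0.16 to 0.13). Per kilobase, Ndufa4l2 therefore made up 22.9% and 25.4% of the pair in DPPIV- FAPs and 6.75% and 9.70% in DPPIV+ FAPs.

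Ndufa4l2 and Cox4i2 are also known as transcripts of pericytes, the mural cells of capillaries. Of 11 mural markers, 10 were tested. In edgeR 9 of them fell in DPPIV+ FAPs, beside 17.2% of all genes, and DESeq2 called 5 of them, beside 16.6%. The median log2 fold change of these markers was -0.69. Their summed level was 676 and 711 CPM in DPPIV- and 452 and 537 CPM in DPPIV+ FAPs. Per kilobase the tested ones ran from 1.22 to 80.2 CPM with a median of 2.65 CPM, so the sum need not reflect most of them. Among the defining ones, the ion channel subunit Abcc9 had 30.0 and 29.0 CPM against 4.499 and 7.08 CPM, Notch3 had 22.8 and 21.7 CPM against 6.89 and 7.79 CPM, and Rgs5 had 13.8 and 9.46 CPM against 9.33 and 7.90 CPM, while Higd1b had at most 0.204 CPM in any library. Of 5 satellite cell markers, the 2 tested fell as well. Vcam1, an adhesion molecule also made by other cells, had 87.3 and 89.3 CPM against 23.4 and 28.6 CPM, and Itga7, a laminin receptor subunit, had 4.78 and 6.14 CPM against 1.89 and 2.69 CPM. The defining Pax7, Myf5 and Myod1 had at most 0.722 CPM in any library. In the opposite direction, 5 of 6 tenocyte markers rose, with a median log2 fold change of 1.56 over the list, and Thbs4 fell. Most mural markers tested and the 2 satellite cell markers tested thus fell in edgeR, as Ndufa4l2 did. So did 4 of 6 endothelial and 5 of 8 macrophage and blood markers tested, whereas most tenocyte markers rose. The part of any of these cells in the result was not tested.

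Cox4i2, the form of subunit 4 found in lung and pericytes, had 15 and 10 reads in DPPIV- and 1 and 4 reads in DPPIV+ FAPs. It stayed under the filter, and its groups did not overlap. Without a filter its adjusted p was 0.0994 in edgeR, so a difference was not called on these 1 to 15 reads a library. The widespread form Cox4i1 had 148 and 130 CPM in DPPIV- and 132 and 140 CPM in DPPIV+ FAPs, with a log2 fold change of -0.03 (95% interval -0.16 to 0.10). Cox4i1 was the complex IV gene with the highest level per kilobase, 184 CPM, and Cox4i2 made up at most 0.495% of the pair per kilobase.

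The forms of heart and skeletal muscle were near the floor in both cell types. Cox6a2 had 9 and 3 reads in DPPIV- and 6 and 11 reads in DPPIV+ FAPs, and Cox7a1 had 14 and 12 reads against 14 and 11. Cox8b had 23 and 18 reads in DPPIV- and 4 and 11 reads in DPPIV+ FAPs, with no overlap between the groups and an adjusted p of 0.139 without a filter. Summed markers of the muscle fibre were 78.5 and 116 CPM in DPPIV- and 81.9 and 116 CPM in DPPIV+ FAPs, higher in mouse 2 than in mouse 1 in both cell types, and 0 of the 11 tested differed between the cell types in edgeR (0 also in DESeq2). The testis form Cox6b2 had 16 and 18 reads against 7 and 4 reads, which did not overlap (adjusted p = 0.152 without a filter). By contrast, the widespread forms Cox6a1 (151 CPM per kilobase), Cox8a (124), Cox6b1 (86.3) and Cox7a2 (53.5) were abundant, with log2 fold changes of 0.04, -0.04, 0.03 and -0.10, none of which passed the threshold. Per kilobase the muscle, testis or lung form made up at most 3.58% of each pair other than that of Ndufa4, the highest share being that of Cox7a1 in the DPPIV+ library of mouse 1.

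**Figure D3:**
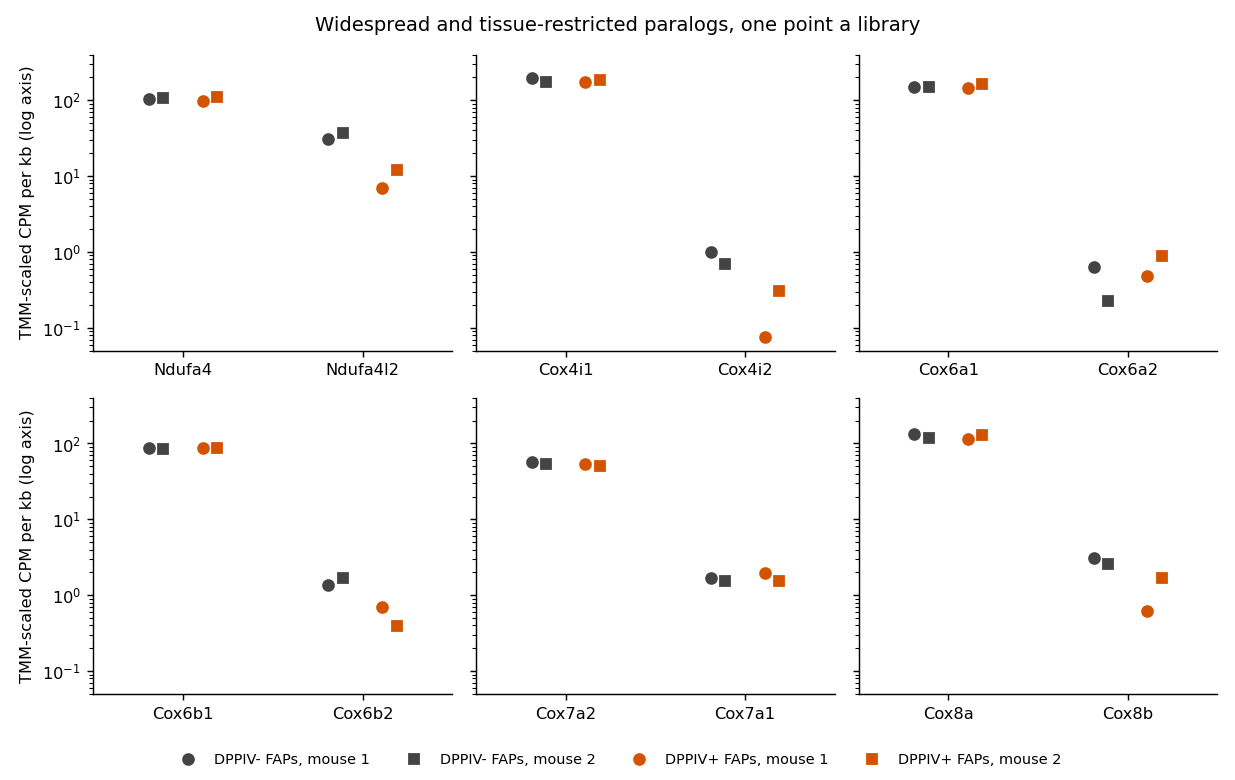
Level per kilobase of transcript, in TMM-scaled CPM on a log axis, of 6 pairs of a widespread form (left in each panel) and a restricted form (right), with 1 point a library, grey for DPPIV- and orange for DPPIV+ FAPs, circles for mouse 1 and squares for mouse 2. The widespread forms sit at like levels in all libraries, and Ndufa4l2 is the restricted form with the highest level in every library.

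Cox7a2l, a relative of Cox7a2 studied for a part in supercomplexes of complexes III and IV, had 71.1 and 51.3 CPM in DPPIV- and 75.3 and 68.6 CPM in DPPIV+ FAPs. The groups overlap, since the DPPIV- library of mouse 1 lies above the DPPIV+ library of mouse 2. The log2 fold change was 0.24 (standard error 0.07, adjusted p = 0.00136 with edgeR), 0.08 in mouse 1 and 0.42 in mouse 2, and it did not pass in DESeq2 (adjusted p = 0.279) or without the mouse block (0.362). With the DPPIV- library of mouse 2 left out it was 0.02. Cox7b, another small subunit of complex IV, had 52.0 and 49.4 CPM against 55.5 and 54.8 CPM, which did not overlap, and did not pass (log2 fold change 0.12, 95% interval -0.02 to 0.26).

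Complex I, the entry point for NADH, had 35 tested genes, of which 1 fell. Ndufs8, a core subunit that carries iron-sulfur clusters, had 26.1 and 26.7 CPM in DPPIV- and 20.1 and 20.5 CPM in DPPIV+ FAPs. The groups did not overlap. The log2 fold change was -0.38 (standard error 0.10, adjusted p = 6.15e-04 with edgeR), -0.38 in mouse 1 and -0.39 in mouse 2. It did not pass in DESeq2 (adjusted p = 0.181). The other core genes did not pass and had log2 fold changes from -0.12 (Ndufs3) to 0.07 (Ndufv1). Ndufs1, the large core subunit with most of the iron-sulfur clusters, had the lowest level per kilobase of the core, 19.2 CPM, and a log2 fold change of -0.02.

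Of the 28 accessory subunits tested, 0 passed in either direction in edgeR (0 also in DESeq2), with a median log2 fold change of -0.03 and a range from -0.25 to 0.37. Ndufa7 had the highest level per kilobase, 77.6 CPM, with 42.6 and 39.5 CPM in DPPIV- and 40.5 and 41.3 CPM in DPPIV+ FAPs. Ndufb4 had the lowest, 2.93 CPM, with 46 and 54 reads against 57 and 59 reads. Its log2 fold change of 0.37 was the largest among the accessory subunits, and its 95% interval, -0.13 to 0.87, was among the widest. The summed level of complex I was 1137 and 1112 CPM in DPPIV- and 1084 and 1122 CPM in DPPIV+ FAPs.

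Complex II, succinate dehydrogenase, is also an enzyme of the tricarboxylic acid cycle. Of its 4 genes 1 rose, and their median log2 fold change was 0.13. Sdhd, a membrane anchor of the complex, had 49.9 and 43.9 CPM in DPPIV- and 55.2 and 52.9 CPM in DPPIV+ FAPs, without overlap. Its log2 fold change was 0.21 (standard error 0.07, adjusted p = 0.0173 with edgeR), 0.14 in mouse 1 and 0.27 in mouse 2, and it did not pass in DESeq2 (adjusted p = 0.465) or without the mouse block (0.194). Sdha, the flavoprotein that oxidises succinate, had 148 and 151 CPM against 163 and 159 CPM, and Sdhb, its iron-sulfur partner, had 40.2 and 42.9 CPM against 46.9 and 46.1 CPM. Neither pair of groups overlapped and neither gene passed (log2 fold changes 0.10 and 0.16, adjusted p = 0.241 and 0.0936). The other anchor, Sdhc, had 60.5 and 56.2 CPM against 55.5 and 59.5 CPM, with overlap. Summed over the complex, DPPIV+ FAPs had 320 and 317 CPM and DPPIV- FAPs 298 and 295 CPM, with log2 ratios of 0.10 for mouse 1 and 0.11 for mouse 2.

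Complex III and cytochrome c had 10 tested genes, 0 of which passed in edgeR (0 also in DESeq2), with a median log2 fold change of 0.02 and all intervals inside 1.5-fold. Uqcrh, the hinge protein beside cytochrome c1, had the highest level per kilobase, 126 CPM, with 72.1 and 63.9 CPM in DPPIV- and 73.2 and 67.3 CPM in DPPIV+ FAPs. Cycs, cytochrome c itself, had the lowest, 4.73 CPM, on a transcript of 3123 bases, with 13.3 and 16.8 CPM against 13.1 and 15.96 CPM. Uqcrc1, a core protein of complex III, was the only gene of the group without overlap, with 71.3 and 71.6 CPM against 77.8 and 80.2 CPM, and its adjusted p was 0.082.

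In complex V, 0 of 16 genes passed in edgeR (0 also in DESeq2), and the median log2 fold change was 0.03. Atp5b had 446 and 430 CPM in DPPIV- and 434 and 459 CPM in DPPIV+ FAPs, with overlapping groups and a log2 fold change of 0.03 (95% interval -0.11 to 0.16). The 3 genes that encode the same subunit c of the rotor were at different levels, 111 CPM per kilobase for Atp5g3, 40.8 CPM for Atp5g1 and 31.0 CPM for Atp5g2, and the last 2 have near copies. Their log2 fold changes were 0.07, -0.15 and 0.08. Atp5s, a coupling factor, had the lowest level per kilobase, 2.58 CPM, with 59 and 77 reads against 88 and 67 reads. The 12 assembly factors, proteins that help to build the complexes and are not part of them, had a median level of 4.85 CPM per kilobase, and 0 of them passed in edgeR (0 also in DESeq2). Among them Ndufaf2 had the highest level, 11.2 CPM per kilobase, with 7.60 and 6.39 CPM in DPPIV- and 7.61 and 8.78 CPM in DPPIV+ FAPs.

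Both DPPIV+ libraries lay above both DPPIV- libraries for 17 of the 90 members and below them for 14. Together that is 34.4% of the members, beside 56.3% of all genes tested. Complex I accessory subunits gave 5 of the 17 and 8 of the 14, and complex V gave 4 and 0.

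Taken as a set, the members did not shift in the same direction in the 2 mice. In mouse 1, 58 of the 90 were lower in DPPIV+ FAPs and the median log2 ratio was -0.06, whereas in mouse 2 only 31 were lower and the median was 0.05. Over all genes tested, 50.8% were lower in mouse 1, and the medians were -0.0049 and -0.0001. Of the members, 36 (40.0%) were lower in mouse 1 and higher in mouse 2, beside 14.0% of all genes, and the sign was the same in both mice for 45 of the 90 members, beside 72.9% of all genes. The DPPIV- library of mouse 1, which enters the ratio of mouse 1, also held the most endothelial and macrophage markers, and their part in these ratios was not tested. Between the mice, with cell type in the model, 4 of the 90 members differed (4.44%), beside 8.98% of all genes. Ndufa4l2, the complex I assembly factor Ndufaf4 and Atp5g1 were higher in mouse 2 (log2 fold changes 0.43, 0.58 and 0.27), and Cox7a2l was lower (-0.30). DESeq2 called 0 members between the mice, beside 0.949% of all genes.

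Genes that work beside the members were read from lists. Over all genes tested, 33.0% were called in edgeR and 16.6% in DESeq2. Of 35 tested assembly factors outside the rule, 1 rose and 0 fell (2.86%). It was Uqcc2, an assembly factor of complex III, with 31.9 and 31.4 CPM in DPPIV- and 55.04 and 59.96 CPM in DPPIV+ FAPs, without overlap (log2 fold change 0.86, standard error 0.08, adjusted p = 2.49e-27 with edgeR). Among 17 enzymes of the tricarboxylic acid cycle and pyruvate dehydrogenase, which feed the chain, 3 rose and 1 fell in edgeR (23.5%). DESeq2 called 0 of these enzymes, and their log2 fold changes ran from -0.27 to 0.22. Proteins of the mitochondrial ribosome, which make the subunits encoded in mitochondrial DNA, gave 2 that rose and 1 that fell of 77 tested in edgeR (3.9%). In DESeq2 0 of the 77 were called. In the list of carriers, porins and uncoupling proteins, 1 of 8 tested fell (12.5%). This was Ucp2, a carrier of the inner membrane, with 66.9 and 65.1 CPM in DPPIV- and 29.0 and 24.2 CPM in DPPIV+ FAPs, without overlap (log2 fold change -1.31, standard error 0.08, adjusted p = 2.58e-61 with edgeR).

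Regulators of mitochondrial genes gave 1 that rose of 14 tested in edgeR (7.14%) and 0 calls in DESeq2. Their log2 fold changes ran from -0.31 to 0.52, and the regulator that rose is not among those named here. The coactivator Ppargc1a had at most 0.573 CPM and Ppargc1b at most 1.43 CPM in any library, both under the filter. The transcription factors Nrf1 (18.9 and 20.8 CPM in DPPIV- and 20.8 and 22.3 CPM in DPPIV+ FAPs), Gabpa (48.6 and 47.3 CPM against 53.5 and 51.4 CPM) and Esrra (19.5 and 16.2 CPM against 20.6 and 21.2 CPM) did not pass, nor did Tfam (21.0 and 20.1 CPM against 20.4 and 19.0 CPM), which packs and transcribes mitochondrial DNA. Gabpa shares 397 exon bases with the member Atp5j on the opposite strand.

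**Figure D4:**
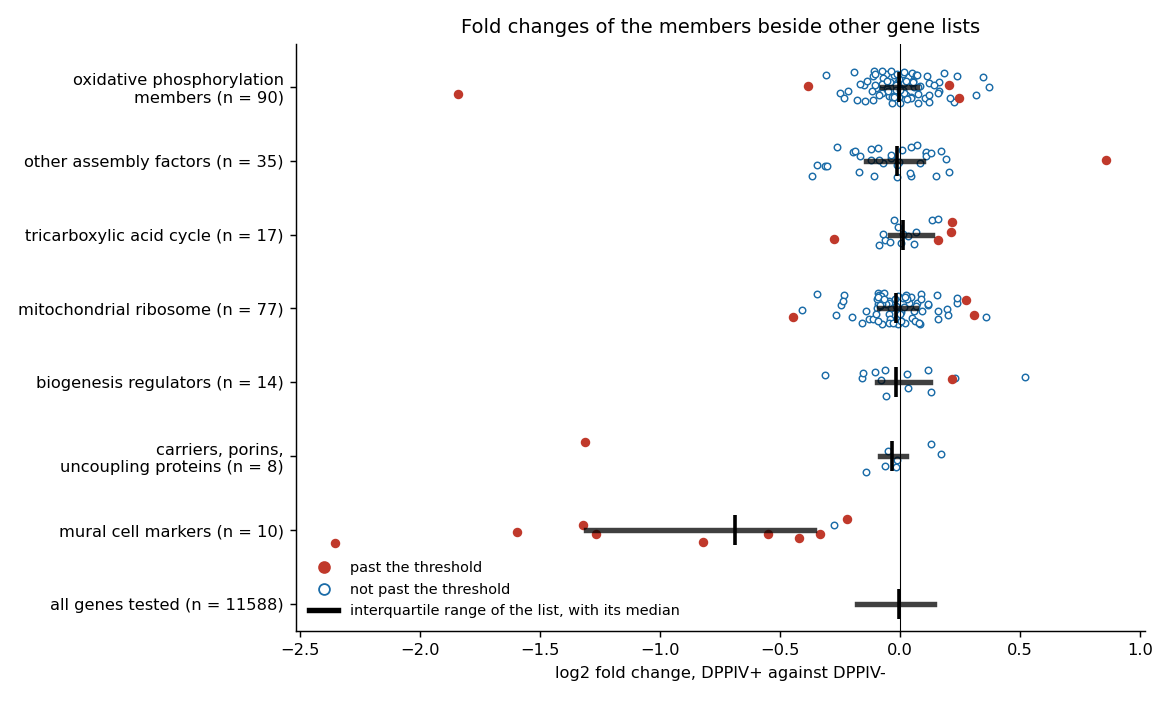
Log2 fold change of DPPIV+ against DPPIV- FAPs for the members, for 5 other mitochondrial lists and for mural cell markers, with 1 point a gene tested, red where it passed the threshold, and a bar from the first to the third quartile of each list with its median. The bars of the mitochondrial lists lie around 0 with Ndufa4l2, Ucp2 and Uqcc2 apart, and that of the mural markers lies below 0.

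The promoters were searched for short motifs on both strands, in windows of 250 bases before and 50 bases after the start. A match of the NRF1 motif CGCANGCGC was held by 28 of 76 tested members with a window (36.8%), beside 15.7% of all tested genes and 7.12% of all 27025 promoters. The YY1 motif AANATGGCG was held by 15.8% of the members, beside 6.32% and 2.76%, and the ERR motif AAGGTCA, the site of estrogen-related receptors, by 9.21%, beside 3.67% and 5.38%. Shares of the GABPA motif CCGGAAGT were 6.58%, 9.34% and 4.31%, those of the HIF motif ACGTG 26.3%, 29.5% and 21.8%, and those of the letters TATAAA 7.89%, 8.51% and 15.7%. The shares are descriptions of letters and say nothing of binding. Among the 28 members with the NRF1 letters the log2 fold changes had a median of 0.05 and 1 call (Sdhd). Among the 48 without them the median was -0.0073, with 2 calls (Ndufs8 and Cox7a2l).

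**Figure D5:**
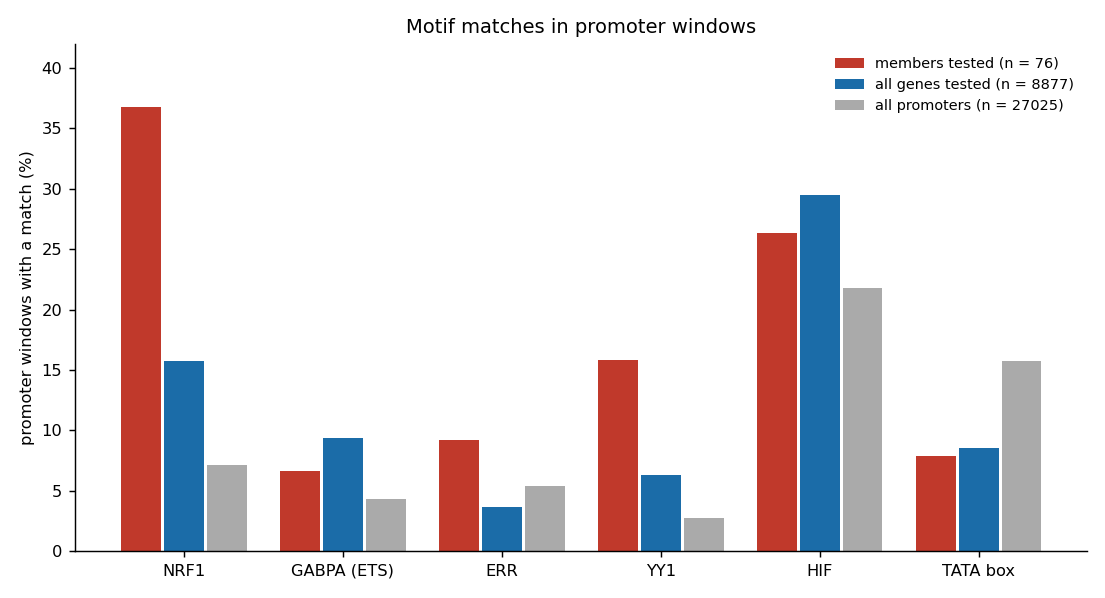
Share of promoter windows, in percent, that hold at least 1 match of each of 6 motifs, for members tested, all genes tested and all promoters. The NRF1 bar of the members, at 36.8%, is above those of the tested genes (15.7%) and of all promoters (7.12%).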

How the data were processed

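RNA of DPPIV- and DPPIV+ FAPs sorted from 2 mice was sequenced in 4 libraries. The authors demultiplexed paired-end reads with bcl2fastq (version 2.20 in the submitters' processing notes), aligned them to mm10 with STAR, counted them with RnaReadCounter and deposited the raw counts of each gene symbol. The annotation release and the strand setting are not given in the sources used here, so reads of overlapping genes on opposite strands may be mixed.

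From these counts, a gene was tested if 2 or more libraries held it at 2 CPM or above, after the study's filter, and libraries were scaled by TMM. The difference between cell types was tested with the quasi-likelihood F test of edgeR (R 4.3.3, edgeR 4.0.16, limma 3.58.1), two-sided, with mouse and cell type in the model and Benjamini-Hochberg adjustment over all genes kept. The prior degrees of freedom came out infinite, and the spread of a gene is thus that of genes at its abundance. Standard errors are the fold change over the square root of F. Log2 ratios per mouse used a prior count of 0.125. The animal numbers in the labels tie 1 library of each cell type to a mouse, and the differences between mice in the 2 cell types correlated at 0.415 across genes. With 2 mice, a permutation test over samples could not pass the threshold. The p-values and intervals of the main test use the spread pooled over genes of like abundance, after the mouse difference is fitted. They do not measure a gene's own spread between animals, and all of them come from 2 animals. Limits from counts cover counting error only.

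Alternatives were DESeq2 1.42.0, no replicate block, RLE, upper-quartile and no TMM scaling, other filters, robust moderation, offsets for GC content and length (from GENCODE M21, which covered 99.7% of the genes tested) within the block, a test against 1.5-fold and each mouse left out. Each library left out, with cell type alone in the model, was added after seeing the data. Near copies were searched with BLAST 2.17.0. The pipeline was tested on simulated data.

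The members and lists were chosen with earlier results of these data known. Genes named are members of the isoform sets, members under the filter with reads, the highest and lowest per kilobase and the largest change past the threshold of each complex. Named as well are 6 regulators of mitochondrial genes (Ppargc1a, Ppargc1b, Nrf1, Gabpa, Esrra and Tfam). Genes of other lists could be named if past the threshold with a log2 fold change of at least 0.5 either way. Only some of these are named, and none of the tenocyte markers that rose. Sdhb, Uqcrc1, Cox7b, Higd1b, Thbs4, Pax7, Myf5, Myod1, Rgs5 and the members that differed between mice were named after their values were seen. Of the members tested, 1 enters the counts and medians and is not reported here by name.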

Additional observations from a re-analysis of the deposited data

How the results depend on the processing

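Ndufa4l2 was called as lower in every alternative with a test, whereas each of the 3 smaller calls was lost in at least 1. Of the 2 members that rose, 0 were called by DESeq2, without the replicate block and on library totals alone, and 1 (Cox7a2l) with upper-quartile scaling. With offsets for GC content and length in the fit with the replicate block, 5 were called, Ndufb7, Sdhb and Uqcrc1 joining Cox7a2l and Sdhd. Of the 2 that fell, 1 was called by DESeq2 and 2 without the replicate block. A test against 1.5-fold called 1 of the 4. With each library left out in turn, where the lone library of a cell type is assumed to vary like the other pair, 0 to 1 rose and 1 to 1 fell. In these fits Ndufa4l2 was called each time, Cox7a2l only without the DPPIV- library of mouse 1 (log2 fold change 0.49), and Ndufs8 and Sdhd in none (Ndufs8 -0.40 to -0.37, Sdhd 0.11 to 0.30). The 4 members that differed between mice became 0 in DESeq2 and 2 on library totals alone. The cause of these changes was not tested. The median log2 fold change of the members ran from -0.06 to 0.05 over all alternatives, on either side of 0, and with upper-quartile scaling it was -0.0448 beside -0.045 for all genes. No call changed sign. Named members that were not called changed sign as follows. With GC and length offsets Cox4i1 had 0.0337, Cox8a 0.0118, Ndufa7 0.0232 and Sdhc 0.0067. Upper-quartile scaling gave Atp5b -0.0163 and Cox6b1 -0.0129, library totals alone gave them -0.0101 and -0.0066, and Ndufa7 had 0.0070 without a filter. With a mouse or a library left out, 32 values of 16 uncalled named members changed sign, from -0.36 (Cox6a2) to 0.13. At 3 reads, or 0.144 to 0.164 CPM, depth limits the restricted complex IV forms.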
